A study of Mus musculus with 3 samples.

Results

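The cell cycle brakes and cyclins of beta cells were taken as 10 genes, Ccnd1, Ccnd2, Ccnd3, Cdk4, Cdkn1a, Cdkn1b, Cdkn1c, Cdkn2a, Cdkn2b and Men1, out of 22359 protein-coding genes of the mouse annotation. For each gene, all peaks of accessible chromatin that overlapped the gene body or the 20 kb on either side were collected, a total of 554 kb of the mm9 assembly. The peaks came from ATAC-seq, in which a transposase inserts sequencing adapters into open chromatin, on cells dissociated from isolated islets of Langerhans of mice labelled as strain C5LBl6. The 3 libraries were made from wild type mice (WT) and from Taf4 KO mice, the latter 1 week and 5 weeks after inactivation. Taf4 belongs to TFIID, the general transcription factor that binds core promoters, and according to the study its floxed alleles were removed in adult mice by Ins1::Cre-ERT2, a Cre recombinase driven by the Ins1 insulin gene and switched on by tamoxifen. The control animals of the study carried the same Cre and received tamoxifen as well. The driver is meant to act in beta cells, and other islet cells are expected to keep Taf4, which peak lists do not measure. The sources used here do not state how many animals or islets stood behind a library. Each group was a single library without a replicate, so no p-value was computed, and every difference below is one between libraries. In mixed islet cells, a change in the share of a cell type and a change in chromatin within it cannot be told apart.

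The D-type cyclins, encoded by Ccnd1, Ccnd2 and Ccnd3, bind and activate the kinase Cdk4, which phosphorylates the retinoblastoma protein and lets E2F factors switch on genes for DNA replication. Ccnd2 and Cdk4 are known to be needed for the growth of beta cell mass after birth in the mouse. Brakes of the CIP/KIP family, encoded by Cdkn1a, Cdkn1b and Cdkn1c, bind complexes of cyclin and kinase, while the INK4 proteins encoded by Cdkn2a and Cdkn2b bind the kinase and keep cyclin D away. Cdkn2a has separate starts for 2 products, Ink4a, which rises with age in beta cells and is held silent by Polycomb proteins, and Arf, which stabilises p53. Men1 encodes menin, a chromatin protein that keeps brakes such as Cdkn1b active and whose loss gives endocrine tumours.

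The sequences that follow were read from the mm9 genome and are printed from the 5′ end. The Ink4a and Arf starts of Cdkn2a lie on chr4:88928067-88928316 and chr4:88940528-88940777. Both are on the minus strand and run from 220 bases before the annotated start to 30 bases from the start on. Capitals mark the GC box GGGCGG, the CCAAT box CCAAT and the TATA box TATAAA on either strand. These starts are shown, after their values had been seen, since a peak at the former was called only in the Taf4 KO lists and a peak at the latter in all 3.
Cdkn2a, Ink4a start: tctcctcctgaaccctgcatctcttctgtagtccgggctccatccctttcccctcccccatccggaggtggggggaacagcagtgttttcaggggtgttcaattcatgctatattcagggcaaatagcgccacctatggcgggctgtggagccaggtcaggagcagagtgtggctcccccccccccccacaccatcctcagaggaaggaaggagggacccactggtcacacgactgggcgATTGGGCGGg
Cdkn2a, Arf start: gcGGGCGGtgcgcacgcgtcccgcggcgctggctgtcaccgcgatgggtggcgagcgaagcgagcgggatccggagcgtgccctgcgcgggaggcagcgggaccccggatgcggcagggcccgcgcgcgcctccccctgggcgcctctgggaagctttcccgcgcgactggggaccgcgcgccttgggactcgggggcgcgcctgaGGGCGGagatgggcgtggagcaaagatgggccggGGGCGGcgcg

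Over the same 250 bases at 45962 starts of protein-coding transcripts, 42.1% held a GC box, 32.1% a CCAAT box and 9.68% a TATA box. The Arf start had 3 GC boxes, no CCAAT box and the CpG content of a CpG island, with an observed to expected ratio of 1.09. The Ink4a start had a ratio of 0.30, with 1 GC box that overlapped 1 CCAAT box. The promoters of Ccnd1, Ccnd2, Cdkn1b, Cdkn2b and Men1 held between 0 and 3 GC boxes at each start. The first Cdk4 start had 4 copies of the E-box CACGTG, which 6.82% of all starts held at least once, and no other member had one. A match to these letters is a description of the sequence and not evidence of a bound factor.

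Away from promoters, 3 regions were found in both Taf4 KO lists and not in the WT list. They lie in introns of Ccnd2 and Ccnd3 and upstream of Cdkn1b. The central 250 bases of the intronic regions are printed as the plus strand, for Ccnd2 at chr6:127097789-127098038 and for Ccnd3 at chr17:47645092-47645341, and were also chosen after their values had been seen. Capitals mark TAGNNGGC, the inner part of the motif of the insulator protein CTCF, the AP-1 motif TGANTCA, the homeodomain core TAATTA, the forkhead motif TGTTTAC, the GC box GGGCGG and the E-box CACGTG, on either strand. The CTCF letters were added to the search after these sequences had been read.
Ccnd2 intron: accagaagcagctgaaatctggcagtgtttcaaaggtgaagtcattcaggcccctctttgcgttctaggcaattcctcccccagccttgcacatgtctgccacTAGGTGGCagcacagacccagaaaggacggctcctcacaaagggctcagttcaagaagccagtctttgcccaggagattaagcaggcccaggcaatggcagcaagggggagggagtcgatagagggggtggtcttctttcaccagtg
Ccnd3 intron: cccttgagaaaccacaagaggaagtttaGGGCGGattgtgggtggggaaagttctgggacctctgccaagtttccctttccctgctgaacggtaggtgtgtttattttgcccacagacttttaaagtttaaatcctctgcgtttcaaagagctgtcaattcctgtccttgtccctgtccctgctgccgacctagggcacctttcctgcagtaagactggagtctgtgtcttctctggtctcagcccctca

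Among 119930 regions within 20 kb of protein-coding genes, the central 250 bases held TAGNNGGC in 8.64%, TGANTCA in 8.43%, TAATTA in 5.62%, TGTTTAC in 4.61%, GGGCGG in 9.93% and CACGTG in 3.81%. The Ccnd2 region held 1 TAGNNGGC and the Ccnd3 region 1 GGGCGG.

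The WT list held 60898 peaks, and the Taf4 KO lists 150354 at 1 week and 151725 at 5 weeks. The genome-wide background recovered from the lists, which grows with the reads of a library, was 3.66 reads in WT, 6.45 reads at 1 week and 9.38 reads at 5 weeks. On this measure the Taf4 KO libraries were read more deeply. Both comparisons share the WT library. The genotype labels were not checked here. Promoter peaks of beta cell markers were found at 7 of 7 genes in WT and at 6 of 7 in each Taf4 KO list, among them Ins1, Ins2, Pdx1 and Mafa in all lists. Of 4 alpha cell markers, the WT list held 3, without Gcg, and the Taf4 KO lists held all 4. Peaks at the 4 markers of stellate cells or fibroblasts numbered 0, 0 and 4, those of endothelial cells 1, 2 and 3 of 4, and those of delta cells 0, 1 and 2 of 2. Immune markers numbered 0, 1 and 0, acinar markers 0, 0 and 1, and duct markers 1, 2 and 2 of 4. More markers of stellate, endothelial, delta, alpha, acinar and duct cells were thus called at 5 weeks than in WT, in the list with the highest background. Those of beta and immune cells were not. Over all protein-coding genes, 59.0% had a promoter peak for WT, 55.9% for 1 week and 65.6% for 5 weeks. The -log10 q of the stellate markers at 5 weeks lay between 1.4 and 4. The markers are given for the full lists only, and their part in the results on the 10 genes was not tested.

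Accessible promoters were found at nearly every cell cycle brake and cyclin in every list. A promoter peak, overlapping the window from 1000 bp upstream to 100 bp downstream of an annotated start, was present at all 10 genes for WT and for 5 weeks, and at 9 of 10 for 1 week. Over all protein-coding genes 59.0% had one for WT, 55.9% for 1 week and 65.6% for 5 weeks. Cdkn1c was the gene without a promoter peak at 1 week. Among all genes with a WT promoter peak, 14.5% lacked one at 1 week and 1.89% at 5 weeks. The loss of 1 of 10 was therefore close to the share over all genes.

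Peaks in the windows of the 10 genes, each counted once, numbered 38 for WT, 27 for 1 week and 50 for 5 weeks, which is 0.71 and 1.32 times the count of WT. The whole lists were 2.47 and 2.49 times as long as the WT list, which is not a comparison of gene windows. The median window held 3.5, 3 and 6 peaks for the 10 genes, beside 3, 3 and 4 for all protein-coding genes. The density was 6.86 peaks per 100 kb in WT, 4.87 at 1 week and 9.02 at 5 weeks, beside 2.29, 5.66 and 5.71 over the genome. These densities move with the length of each list. Peaks at the genes' own promoters numbered 11, 11 and 12, and peaks at promoters of neighbouring genes 8, 4 and 8. Distal peaks, outside all promoters, were 19 for WT, 12 for 1 week and 30 for 5 weeks.

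At 1 week, 7 of 10 genes had fewer peaks in the window than in WT, against 43.0% of all genes, and 2 of 10 had more, against 33.5%. At 5 weeks only Cdk4 had fewer, 1 of 10 against 15.1% of all genes, and 6 of 10 had more, against 54.0%. When the Taf4 KO lists were cut to the strongest 60898 peaks, the windows held 38, 20 and 40 peaks. After scaling to the WT background they held 38, 20 and 35. At equal covered length they held 38, 19 and 32. The lower number at 1 week was therefore found in each of these settings. Promoter peaks over all protein-coding genes were also fewer at 1 week in them. They were found at 48.8%, 49.1% and 48.4% of genes in turn, against 59% in WT. Window counts over all genes are not given for these settings. The higher number at 5 weeks was not found after scaling or at equal covered length.

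**Figure D1:**
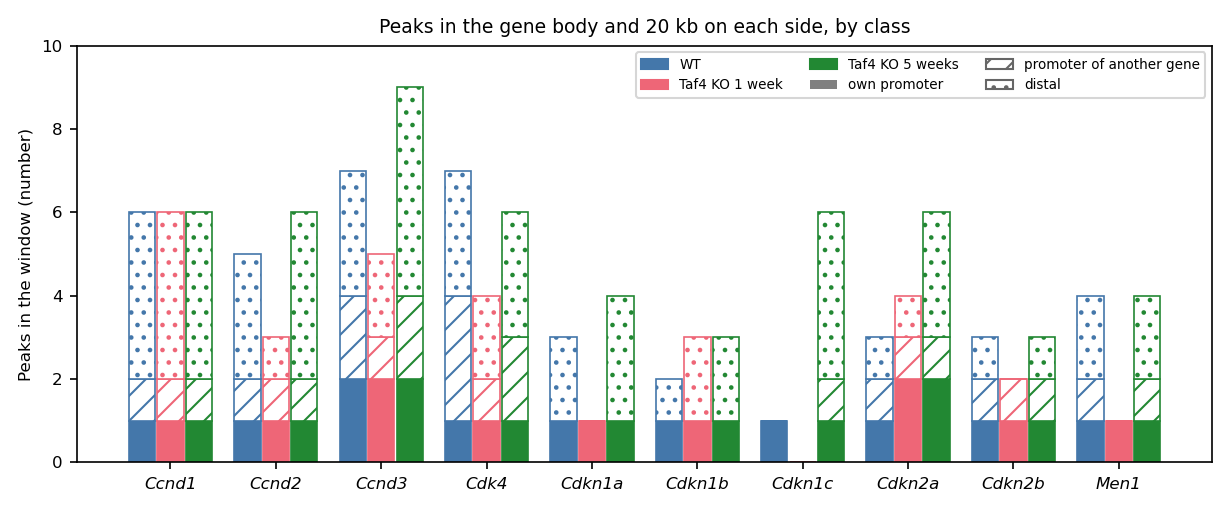
Number of peaks (vertical axis) overlapping each gene body and 20 kb on either side, in the 3 lists (WT, 1 week, 5 weeks), with solid bars for the gene's own promoter, hatched bars for promoters of other genes and dotted bars for distal peaks. The largest spread was at Cdkn1c, with 1, 0 and 6 peaks, and Ccnd1 held 6 peaks in each list.

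The strength of a promoter was taken from its strongest peak. Its -log10 q was ranked within its own list, so that the percentile 100 is the strongest peak, and the fold is the authors' ratio of reads over the local background. The median percentile of the 10 genes was 68.9 in WT, 90.7 at 1 week (9 genes) and 88.4 at 5 weeks, beside 85.1, 87.7 and 89.7 over all genes with a promoter peak. These percentiles come from lists of unequal length, and the order of the lists turned with the setting. The median of the 10 genes was 74.6, 68.8 and 71.3 among peaks from a -log10 q of 3 on, and 68.9, 76.2 and 64.9 at equal covered length. The percentile was above that of WT at 6 of 9 genes at 1 week, against 59.9% of all genes, and at 9 of 10 at 5 weeks, against 80.0%. Since the Taf4 KO lists are longer, the rank counted from the top was also compared. It was better than in WT at 3 of 9 genes at 1 week, namely Ccnd1, Ccnd3 and Cdkn2a, against 26.2% of all genes. At 5 weeks it was better at 3 of 10, namely Ccnd2, Ccnd3 and Cdkn2a, against 27.6%.

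The fold was above that of WT at 4 of 9 genes at 1 week, Ccnd1, Ccnd2, Ccnd3 and Cdkn2a, against 16.7% of all genes, and at 2 of 10 at 5 weeks, Ccnd1 and Ccnd2, against 23.4%. At Ccnd2 a stronger WT peak lies just outside the promoter window, and at Ccnd3 the strongest promoter peak sits at another start in WT than in the Taf4 KO lists, which bears on their fold, rank, percentile and width. The median fold was 3.35, 3.58 and 3.25 for the 10 genes and 4.29, 3.33 and 3.68 for all genes. The pileup of reads, divided by the genome-wide background of its library, was above that of WT at 0 of 9 and 0 of 10 genes, against 4.62% and 2.84% of all genes. Its median was 11.3, 4.58 and 6.14 for the 10 genes and 10.6, 4.3 and 5.32 for all genes. On this scale the promoters of brakes and cyclins were lower in both Taf4 KO libraries, as were those of nearly all genes. The strongest promoter peak was wider than in WT at 2 of 9 genes at 1 week, against 34.5%, and at 5 of 10 at 5 weeks, against 62.0%.

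**Figure D2:**
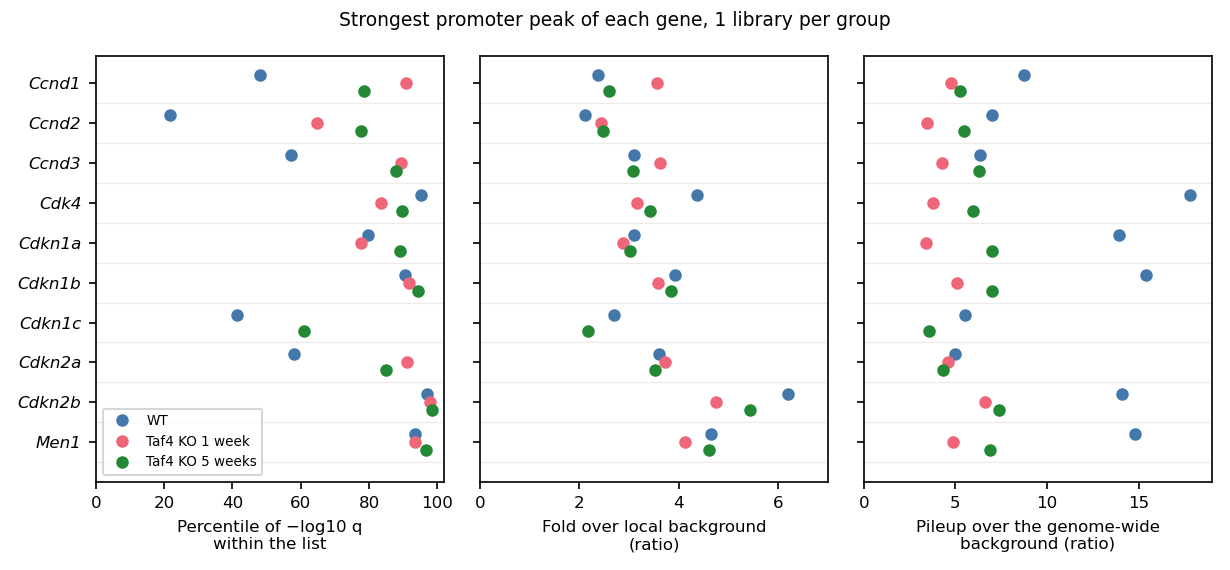
Strongest promoter peak of each gene in the 3 lists (WT, 1 week, 5 weeks), as the percentile of -log10 q within its list, the fold over the local background (ratio) and the pileup over the genome-wide background (ratio), 1 point per library. Ccnd1, Ccnd2, Ccnd3, Cdkn1c and Cdkn2a lie at or below the percentile 58.1 in WT and higher in each Taf4 KO list that has the peak, whereas the pileup of all 10 genes is highest in WT.

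Ccnd1 encodes cyclin D1 and lies at chr7:152115836-152125774 on the minus strand. The -log10 q of its promoter peak was 3.53 for WT, 7.4 for 1 week and 6.99 for 5 weeks, with a fold of 2.38, 3.56 and 2.59. The percentile was 48, 90.7 and 78.5, the rank from the top 31643, 14040 and 32599, and the pileup over the genome-wide background 8.74, 4.77 and 5.25. WT was thus lowest by percentile, 5 weeks last by rank, and WT highest by pileup. The WT peak ended 1 base inside the annotated start, at 372 bp wide, and the peaks of the 1 week and 5 week lists reached -57 and -34 bp from it. Beside the promoter, Ccnd1 had a distal peak in the intron at +2.1 kb, with -log10 q of 9.12, 3.7 and 14. It also had peaks about 1.65 and 3.27 kb upstream, and a peak just past its 3′ end. All 6 of its regions were found in all 3 lists. The regions at +24.7 and -3.27 kb had no peak at 1 week under any of the 5 stricter or matched settings, and in lists of equal number the window held 6, 4 and 6 peaks. At the other 5 regions the 1 week value was the lowest, and at the promoter it was the highest.

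Ccnd2, the D-type cyclin best known in beta cells, lies at chr6:127075797-127101066 on the minus strand. In WT its start was not covered. A weak peak with a -log10 q of 1.94 lay at -557 to -930 bp, and a stronger peak of 1152 bp, with a -log10 q of 10 and a fold of 3.36, lay just inside the gene, outside the promoter window. At 1 week a peak of 1039 bp with a -log10 q of 2.62 covered the start. At 5 weeks a single peak of 2730 bp, with a -log10 q of 6.67, ran from -1355 bp to 1374 bp relative to the start and took in both WT positions. The percentile of the promoter peak was 21.7, 64.7 and 77.6, and this order leaves out the stronger WT peak inside the gene, at the percentile 80.4. With the promoter window widened to 2000 bp upstream and 500 bp downstream, that peak is counted, and the WT median of the 10 genes was 80.1 in place of 68.9.

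In the Ccnd2 intron at +3.15 kb, a peak of 209 bp at 1 week, with a -log10 q of 5.39 and a fold of 3.17, and one of 305 bp at 5 weeks, with 11.4 and 3.07, had no counterpart in WT. It is the region with TAGNNGGC printed above, and it was present in both Taf4 KO lists under each of the 5 stricter or matched list settings that were tried. Further into the gene, peaks at +8.55 and +18.2 kb were found in WT, with -log10 q of 3.22 and 3.2, and at 5 weeks, with 4.11 and 3.99, and not at 1 week. A peak past the 3′ end, at +28.4 kb with 2.54, was found at 5 weeks only. Ccnd2 thus held regions shared by all lists, regions of both Taf4 KO lists, regions with a gap at 1 week and a region of 5 weeks alone.

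Ccnd3 encodes cyclin D3 and is the longest of the 10 genes, at chr17:47642000-47736632 on the plus strand, with separate starts at its 5′ end and about 88 kb further on. At the upstream start the -log10 q was 3.16 for WT, 6.81 for 1 week and 11.5 for 5 weeks. At the downstream start it was 4.52, 2.23 and 6.82. The downstream start had the stronger peak in WT and the upstream start in both Taf4 KO lists. An intronic peak at +6.35 kb was among the strongest of the windows, with 20.1, 3.82 and 24.1. A weaker one at +3.22 kb was absent in WT and had 2.5 and 5.05 in the Taf4 KO lists. It was left at 5 weeks only when a -log10 q of at least 3 was asked for. Weak WT peaks 13 and 19 kb upstream, with 2.03 and 2.37, were found in neither Taf4 KO list, and peaks at +16.7, +62.5 and +114 kb were found at 5 weeks only, with 3.6, 2.54 and 6.13.

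Cdk4, the kinase partner of the D-type cyclins, lies at chr10:126500590-126504976 on the plus strand. Its promoter peak had a -log10 q of 20.1 for WT, 4.89 for 1 week and 12.9 for 5 weeks. The fold was 4.36, 3.16 and 3.41, the percentile 95.2, 83.6 and 89.6, and the rank from the top 2909, 24588 and 15716. Cdk4 was the member that stood below WT in percentile at both times. By rank from the top, Cdkn1a, Cdkn1b, Cdkn2b and Men1 stood below WT at both times as well. The pileup over the genome-wide background was 17.8, 3.76 and 5.98, the highest WT value of the 10 genes. The peak itself stayed in place, with widths of 971, 717 and 1223 bp over the same starts. With this peak included, the window held 7 peaks in WT, 4 at 1 week and 6 at 5 weeks. Peaks at -3.05, -14.2 and +18.3 kb were found in WT and at 5 weeks and not at 1 week. Weak peaks at +12.3 kb in WT, with 1.37, and at +16.5 kb at 1 week, with 1.29, were each found in a single list.

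**Figure D3:**
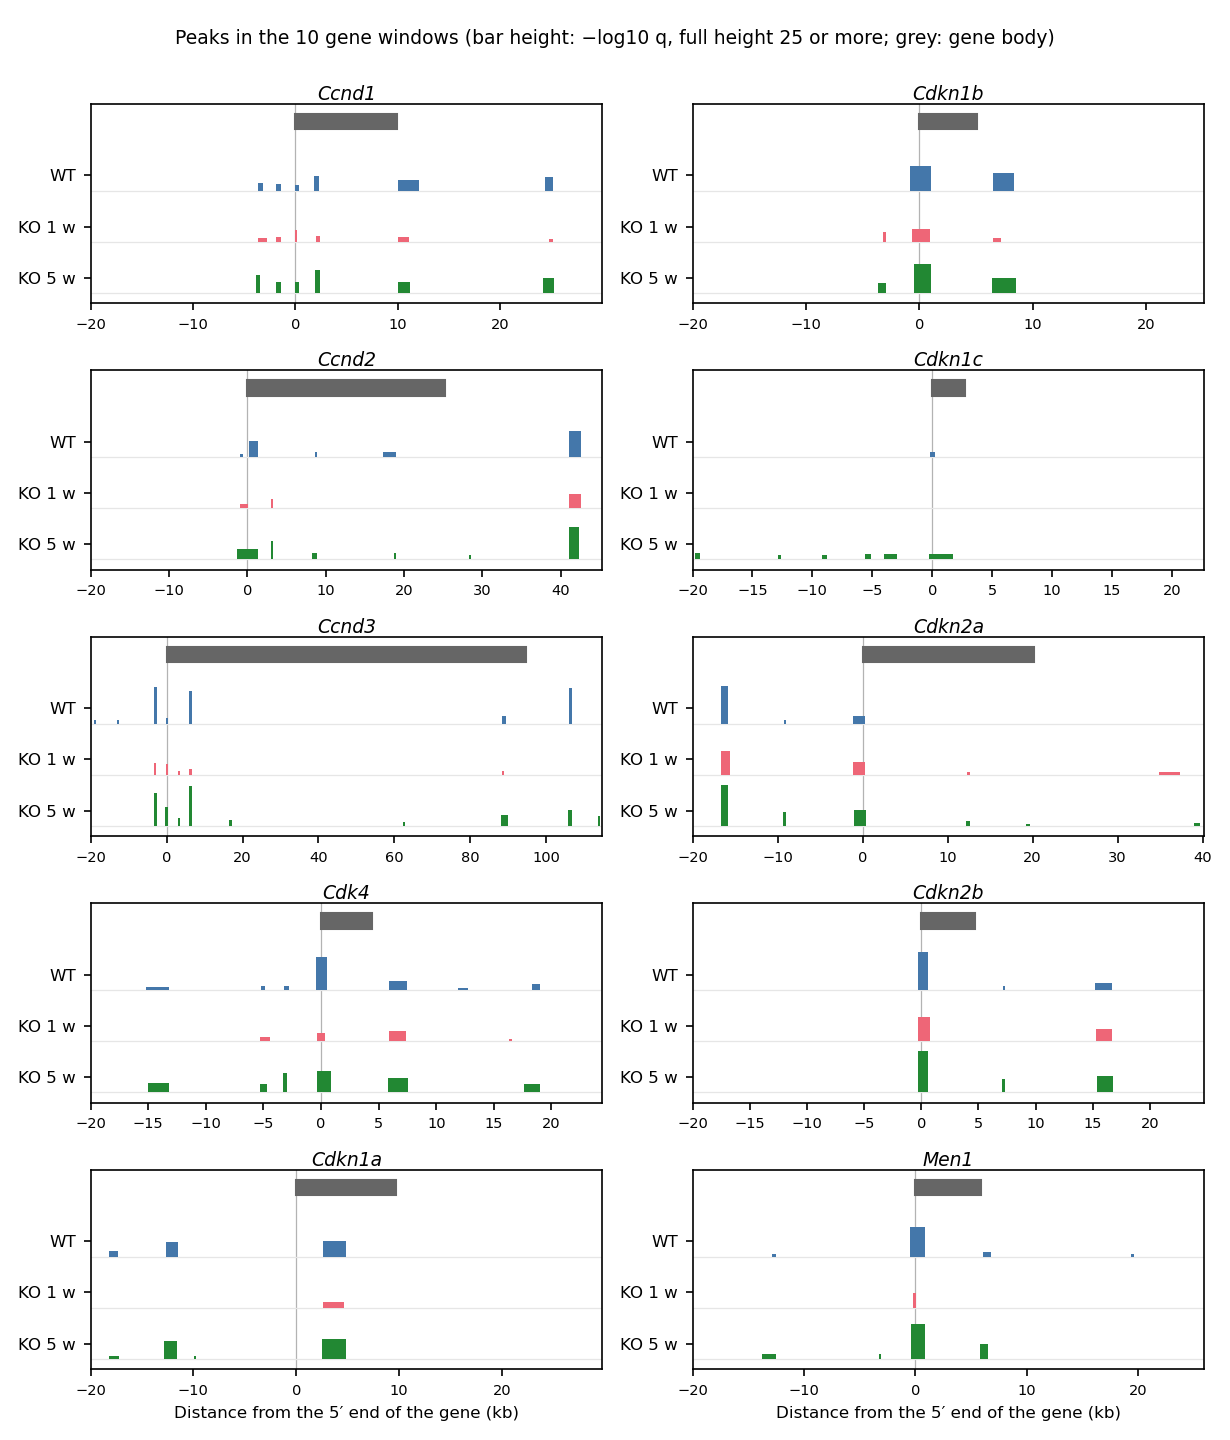
Peaks of WT, KO 1 week and KO 5 weeks in the windows of the 10 genes against distance from the 5′ end of the gene (kb, in the direction of transcription), with bar height for -log10 q up to 25 and grey for the gene body. The tallest bars at Cdkn1b and Men1 lie over the start in all lists, and Cdkn1c has no bar at 1 week.

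Cdkn1a encodes p21, the brake switched on by p53, and lies at chr17:29227924-29237667 on the plus strand. Of its 3 annotated starts only that at position 29230717 had a peak in its window, in every list. Its -log10 q was 9.76 for WT, 3.72 for 1 week and 12.4 for 5 weeks, with widths of 2241, 2103 and 2354 bp and a fold of 3.09, 2.88 and 3.02. The position, width and fold of this peak were thus close in the 3 lists, while its -log10 q was lowest at 1 week. Distal peaks lay 12.2 and 17.7 kb upstream. The nearer had a -log10 q of 9.01 in WT and 11 at 5 weeks, and the farther 3.73 and 1.85. Neither was found at 1 week, so that the promoter peak was the only one in the window there.

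Cdkn1b encodes p27, a brake of resting beta cells, and lies at chr6:134870419-134875531 on the plus strand. Its promoter peak had a -log10 q of 15.4, 7.96 and 17.6, a fold of 3.93, 3.58 and 3.85 and a percentile of 90.6, 91.7 and 94.3, each given for WT, 1 week and 5 weeks in turn. It was 1861, 1583 and 1456 bp wide and covered the start in each list. A peak past the 3′ end, at +7.45 kb, had 10.6, 2.26 and 9.15. The region at -3.28 kb had no WT peak, a peak of 238 bp with 5.82 at 1 week and one of 643 bp with 6.32 at 5 weeks. It was present in both Taf4 KO lists under each of the 5 stricter or matched settings, as was that in Ccnd2. Cdkn1b and Cdkn2a were the members with more peaks at 1 week than in WT, 3 against 2 and 4 against 3. In lists of equal number, at equal covered length and after scaling, this was not found, with 2 against 2 at Cdkn1b and 2 against 3 at Cdkn2a.

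Cdkn1c encodes p57, the imprinted member of the CIP/KIP family, and lies at chr7:150644255-150646955 on the minus strand. It had the fewest WT peaks, a single peak of 348 bp over the start with a -log10 q of 2.97, a fold of 2.70 and a percentile of 41.2. No peak at all was found in its window at 1 week. At 5 weeks the promoter peak was 2000 bp wide, with 3.14, a fold of 2.18 and a percentile of 60.9, and reached from -232 to 1767 bp relative to the start. At that time 5 more peaks lay upstream, at -3.45, -5.35, -8.99, -12.7 and -19.6 kb, with -log10 q between 2.7 and 3.92. The 5 upstream peaks lay at percentiles from 55.6 to 66.8 of the 5 week list, whose lowest -log10 q was 1.01. None of them was left from a -log10 q of 5 on or at equal covered length. The WT promoter call was lost with a -log10 q of at least 3. That at 5 weeks was lost with a -log10 q of at least 5, at equal covered length and after scaling to the WT background. The window held 1, 0 and 4 peaks in lists of equal number and 1, 0 and 1 after scaling.

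The INK4 genes lie side by side, Cdkn2a at chr4:88920377-88940557 and Cdkn2b at chr4:88952198-88956941, both on the minus strand, and share peaks in their windows. Cdkn2b, which encodes p15, had the strongest promoter peak of the 10 genes in each list, with a -log10 q of 23.1 for WT, 14.7 for 1 week and 27.2 for 5 weeks. Its fold was 6.19, 4.74 and 5.43 and its percentile 97.1, 98 and 98.6. The peak was 863, 1070 and 871 bp wide. A peak between the genes, 9.16 kb upstream of Cdkn2a, had 2.39 in WT and 8.33 at 5 weeks and was not found at 1 week.

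At Cdkn2a the Arf start had a -log10 q of 4.66 for WT, 7.63 for 1 week and 9.86 for 5 weeks, with a fold of 3.60, 3.72 and 3.53 and widths of 1440, 1400 and 1389 bp. Its percentile was 58.1, 91.1 and 84.9. Cdkn2a was the gene whose rank from the top was better at both times together with Ccnd3, at 25520, 13392 and 22837. Its pileup over the genome-wide background was the most even of the 10 genes, at 4.96, 4.58 and 4.33. At the Ink4a start no peak was found in WT, and weak peaks were found at 1 week, of 306 bp with 1.48, and at 5 weeks, of 414 bp with 2.82. Of 19749 starts without a WT promoter peak, 7.05% had one in both Taf4 KO lists. The Ink4a peaks were absent from both lists under all 5 stricter or matched settings, scaling to the WT background among them.

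**Figure D4:**
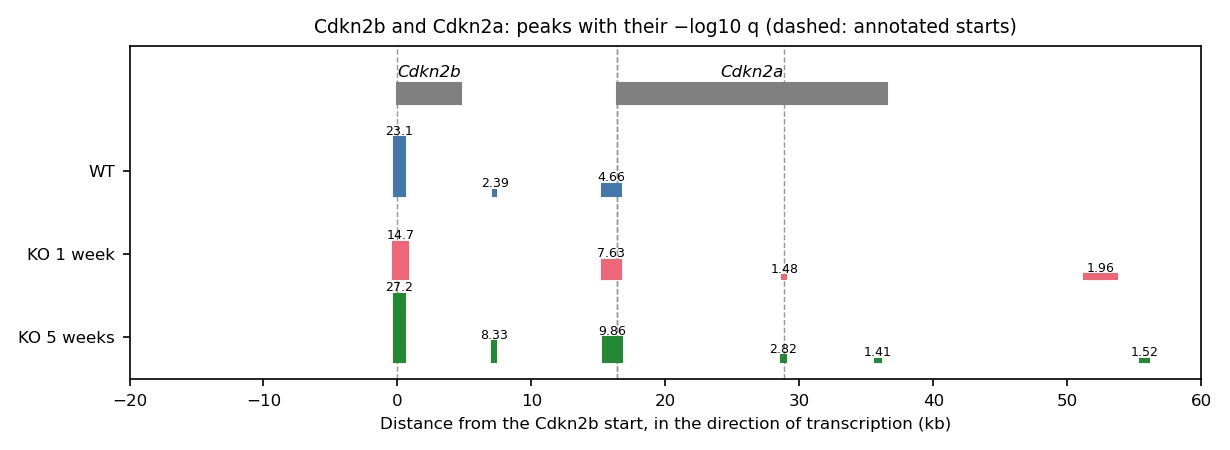
Peaks at Cdkn2b and Cdkn2a in WT, KO 1 week and KO 5 weeks against distance from the Cdkn2b start (kb, in the direction of transcription), with the -log10 q printed on each bar and dashed lines at the annotated starts. The Cdkn2b start and the Arf start carry a peak in all 3 lists, and the Ink4a start carries 1.48 at 1 week and 2.82 at 5 weeks.

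Men1 lies at chr19:6334979-6340891 on the plus strand, with several starts close together. Its promoter peak had a -log10 q of 18.2 for WT, 9.18 for 1 week and 21.4 for 5 weeks, a fold of 4.64, 4.12 and 4.60 and a percentile of 93.6, 93.6 and 96.7. The peak was 1332 bp wide in WT and 1312 bp at 5 weeks, but 299 bp at 1 week, where it covered the upstream starts and not the 3 starts from position 6335064 on that the other lists covered. At 1 week it was the only peak in the window. A peak at -13.1 kb had 1.38 in WT and 2.93 at 5 weeks, and a peak at -3.16 kb, with 3.15, was found at 5 weeks only.

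Peaks of the 3 lists that touched each other were merged into 56 regions. All 3 lists held 21 of them, or 37.5%, against 24.1% of 119930 regions near protein-coding genes. WT and 5 weeks but not 1 week held 12, or 21.4%, against 7.73%. Both Taf4 KO lists without WT held 4, or 7.14%, against 14.3%. A further 13 regions, or 23.2%, were at 5 weeks only, against 25.8%, 2, or 3.57%, at 1 week only, against 20.2%, and 4, or 7.14%, in WT only, against 7.27%. No region was shared by WT and 1 week alone, a pattern held by only 0.459% of the regions near protein-coding genes. The pattern with a gap at 1 week was thus more frequent, and the pattern of 1 week alone less frequent, than near genes in general, as a description without a test. The 12 regions with the gap lay at Ccnd2, Ccnd3, Cdk4, Cdkn1a, Cdkn1c, Men1 and between Cdkn2a and Cdkn2b.

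**Figure D5:**
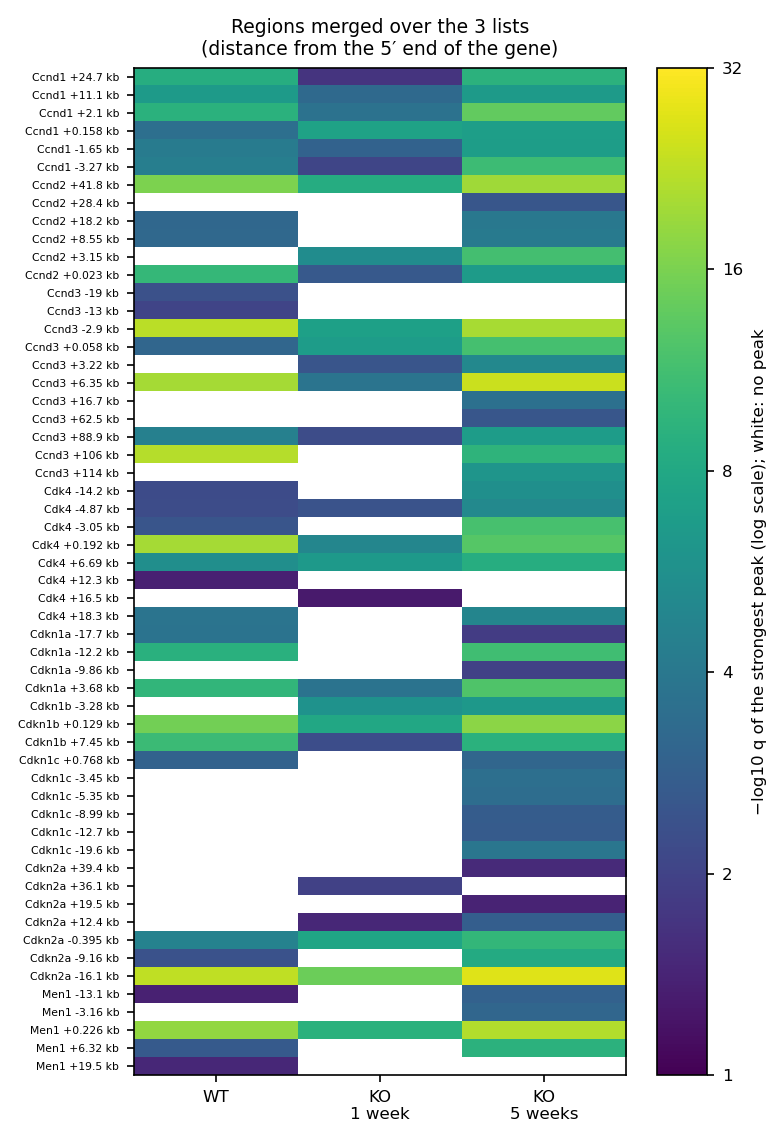
The -log10 q of the strongest peak (colour, log scale) in WT, KO 1 week and KO 5 weeks for each merged region, named by gene and distance of its midpoint from the 5′ end (kb), with white for no peak. The 12 regions of WT and 5 weeks appear as white cells in the middle column, and the 4 of both Taf4 KO lists as white cells on the left.

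Promoters and distal peaks differed in how often a WT peak was found again. Of the 19 WT peaks at promoters in the windows, 14, or 73.7% (exact Clopper-Pearson 95% interval 48.8 to 90.9), were overlapped by a peak at 1 week and 19, or 100% (82.4 to 100), at 5 weeks. Near all genes these shares were 85.5% and 97.5%. The WT promoter peaks were 11 at the genes' own promoters and 8 at promoters of neighbouring genes. Of the 5 not overlapped at 1 week, only that of Cdkn1c was a gene's own promoter. The rest lay at promoters of the neighbours Cyp27b1, March9, Bysl with Med20, and Map4k2. Of the 19 distal peaks, 7, or 36.8% (16.3 to 61.6), were overlapped at 1 week and 15, or 78.9% (54.4 to 93.9), at 5 weeks. Near all genes they were 53.1% and 74.2%. The intervals cover the counting of peaks only and hold the share near all genes in each case.

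Over all genes, the share of WT promoter peaks missing at 1 week moved with the base composition of the surroundings. All genes with a WT promoter peak were split into 5 groups of equal size on the share of G and C in the surrounding 1 Mb. The group of the highest GC, from 47.8% to 54%, lacked the promoter peak at 1 week in 30.7% of genes, and the group of the lowest in 2.84%. At 5 weeks these shares were only 1.93% and 1.33%. Ccnd1, Ccnd3, Cdkn1a, Cdkn1c and Men1 lie in the group of the highest GC. Their 5 windows together held 21 peaks for WT, 13 for 1 week and 29 for 5 weeks. All genes, with or without a WT promoter peak, were also sorted by the same GC limits. The mean for a single window in the highest group was then 4.95, 2.57 and 5.63 peaks. Cdkn2a and Cdkn2b lie in the group of the lowest GC. Their overlapping windows held 3, 4 and 6 peaks at Cdkn2a and 3, 2 and 3 at Cdkn2b. The mean for a single window over all genes of that group was 1.7, 6.63 and 5.35. Cdkn1c, at 48% GC, thus lost its call in the group in which such losses were most frequent. The part of base composition in the values of the 10 genes was not tested.

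Of 40 other cell cycle genes, the WT and 5 week lists each held a promoter peak at 39 and the 1 week list at 37. All 8 of the E, A and B cyclins and their kinases, all 11 of the retinoblastoma and E2F family and all 8 regulators of the brakes, such as Trp53, Ezh2 and Bmi1, had one in each list. Of the other partners and INK4 genes, Cdk6 and Cdkn2c had a peak in each list, and Cdkn2d in none. Among 10 replication and division genes, 8 had a peak at 1 week and all 10 in the other lists. The exceptions were Mcm2, a subunit of the replicative helicase, with a -log10 q of 6.69 in WT and 15.1 at 5 weeks, and Aurkb, a mitotic kinase, with 4.66 and 7.6. An accessible promoter was in this way found at nearly all cell cycle genes, with no measure of their transcription in these lists.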

How the data were processed

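Islet ATAC-seq of 3 libraries was read from peak lists, 1 per group, with groups taken from the genotype and time labels. Per the labels and the submitters' processing notes, bcl2fastq 2.17.1.14, Bowtie 1.0.0 and MACS2 2.1.1 were used on mm9. The authors kept uniquely mapped reads and called broad peaks in each library on its own. No duplicate removal, control library or shift to the insertion site is given in the sources used here. For each peak the deposited columns hold a ratio (the fold over local background) and the -log10 of the p-value and of the q-value, which the caller averages along the peak. The whole-number score deposited by the authors' caller follows the -log10 q and was not used.

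Mitochondrial peaks, 2 in each list, were dropped. The genes and starts came from the GENCODE annotation of NCBIM37, the same build as mm9. A peak overlapped from 1 bp on. Percentiles were taken within each list (python 3.11.15, pandas 2.3.3, scipy 1.17.1). Read totals are not part of peak lists. The local background and pileup were recovered from fold and -log10 p with the caller's pseudocount of 1, and the genome-wide background was their percentile 1 in each list. Equal read extension was assumed. The steps were tested on simulated peaks, each with 1 exact fold and p-value. That test does not cover the averaging along the peak in the deposited columns. Lists were also cut by q, to equal number, to equal covered length, and after scaling to the WT background. Kmt2a was matched by its older symbol Mll1. All 10 genes are named, and other cell cycle genes where the call differed between lists. Members, gene lists and motifs were chosen with earlier results of these data known. Promoter sequences of another build were not used. Some sequences are not reported here.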

Additional observations from a re-analysis of the deposited data

Results flagged for a closer look

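In 4 genes the number of peaks in the window moved in opposite directions at 1 week and at 5 weeks relative to the shared WT library, each with 1 library per group, and the difference was not tested. Over all protein-coding genes, 43.0% had fewer peaks than WT at 1 week and 54.0% had more at 5 weeks. The share of all genes with both is not given here, so the pattern is not shown to be particular to these genes. Ccnd2 differed from WT by -2 peaks at 1 week and 1 at 5 weeks, Ccnd3 by -2 and 2, Cdkn1a by -2 and 1, and Cdkn1c by -1 and 5. Lists were also cut to the number of peaks in the WT list. The windows then held 5, 3 and 5 peaks at Ccnd2 and 7, 4 and 8 at Ccnd3. They held 3, 1 and 2 at Cdkn1a and 1, 0 and 4 at Cdkn1c. After scaling to the WT background they held 5, 3 and 5, 7, 4 and 7, 3, 1 and 2, and 1, 0 and 1 peaks. The lower number at 1 week was thus found in both settings at all 4 genes. The higher number at 5 weeks was found in lists of equal number at Ccnd3 and Cdkn1c, and after scaling at none of the 4. It was also found at none of them at equal covered length. The windows there held 5, 3 and 3 peaks at Ccnd2 and 7, 4 and 7 at Ccnd3. They held 3, 1 and 2 at Cdkn1a and 1, 0 and 0 at Cdkn1c.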

How the results depend on the processing

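No paired analysis was possible because there was 1 library per group, and no library could be left out. The direction of a difference from WT could turn: the windows held 50 peaks at 5 weeks against 38 in WT, but 35 against 38 after scaling. With peaks kept from a -log10 q of 3 on, the windows held 16 peaks at 1 week, and the median percentile was 74.6, 68.8 and 71.3. With a cut at 5, the WT list kept a promoter peak at 5 of the 10 genes, the 1 week list at 6 and the 5 week list at 9. The corresponding shares of all protein-coding genes were 48.6%, 33.5% and 54.4%. The windows then held 16, 11 and 31 peaks, the median percentile was 83.9, 46 and 60.6, and 37.5% and 100% of WT peaks were overlapped. In lists of equal number the median percentile at 1 and 5 weeks was 76.9 and 71, at equal covered length 76.2 and 64.9, with 32 peaks at 5 weeks, and after scaling 77.7 and 67.2. The percentiles moved by construction, since they are taken within shorter lists. The wider promoter window gave a WT median of 80.1. Without flanks the windows held 15, 15 and 22 peaks, so that the lower number at 1 week was not found in the gene bodies alone. With flanks of 50 kb they held 67, 43 and 91. With a reciprocal overlap of 50%, 36.8% and 68.4% of WT peaks were overlapped, against 55.3% and 89.5%. The calls of Cdkn1c, the Ink4a start and the WT promoter of Ccnd2 were weak and were lost under 1 or more settings. The 1 week promoter call of Ccnd2 was lost from a -log10 q of 3 on. From 5 on, the WT calls of Ccnd1, Ccnd3 and Cdkn2a and the 1 week calls of Cdk4 and Cdkn1a were lost as well. The cause of these losses was not tested.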

Other observations

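The windows also held promoters of genes outside the 10. The strongest in WT was that of Taf8, another TFIID subunit, 2.9 kb upstream of Ccnd3, with a -log10 q of 22.3 for WT, 7.18 for 1 week and 20.4 for 5 weeks. The peak at the shared promoter of Bysl and Med20, past the 3′ end of Ccnd3, had 21.7 in WT and 9.55 at 5 weeks and was not found at 1 week. The promoters of March9 near Cdk4, with 2.5 and 11.7, and of Map4k2 near Men1, with 2.67 and 9.21, had the same gap at 1 week. The promoter of Oraov1 near Ccnd1 had 8.63, 1.69 and 9.3, and that of 9630033F20Rik near Ccnd2 had 16.1, 8.53 and 19.6. Tspan31 near Cdk4 was the neighbour with a higher value at 1 week than in WT, with 5.51, 6.51 and 8.61.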
